A study of Mus musculus with 6 samples.

Results

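The Kdm4 (Jmjd2) family comprises the histone demethylases Kdm4a, Kdm4b, Kdm4c and Kdm4d, and it was read here by 5 array probes in pituitaries of Kdm4a knockout mice. The probes were chosen by annotation alone, as non-control probes whose systematic name is a RefSeq transcript of 1 of these 4 genes. They make up 5 of the 55681 probes and 4 of the 20972 genes named on the array. RNA from the pituitaries of 6 mice was read on 6 Agilent arrays with 1 colour, 1 mouse per array. The 3 KO females carried Jmjd2a-/- (Jmjd2a is the older name of Kdm4a) and the 3 WT females were Jmjd2a+/+ littermates. All 6 were virgins of 8 weeks on a C57BL6 background, and the glands were taken 24 h after soiled bedding from a stud male had activated the oestrus cycle (the Whitten effect). The deletion is not described as limited to any cell type, and the sources used here do not give its extent within the gene.

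Kdm4 enzymes remove methyl groups from lysines of histone H3 that mark silenced chromatin and the bodies of transcribed genes, using iron and 2-oxoglutarate in a JmjC domain. Kdm4a, Kdm4b and Kdm4c also carry PHD and Tudor domains, which bind chromatin, while Kdm4d lacks them and is best known from testis. Nuclear hormone receptors, among them those for oestrogen and androgen, recruit some members as coregulators, and these receptors act in the pituitary.

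The region before the start is shown for Kdm4a, the targeted gene, and for Kdm4d, the member without PHD and Tudor domains, so that their starts can be set side by side. RefSeq promoters matched 3 of the 4 genes (Kdm4a, Kdm4c and Kdm4d), and the sequences are theirs on build GRCm38.p6, each being the 250 bases before the start with CpG dinucleotides in capitals. The Kdm4a stretch lies at chr4:118180044-118180293 on the minus strand and the Kdm4d stretch at chr9:14500483-14500732 on the minus strand.
Kdm4a: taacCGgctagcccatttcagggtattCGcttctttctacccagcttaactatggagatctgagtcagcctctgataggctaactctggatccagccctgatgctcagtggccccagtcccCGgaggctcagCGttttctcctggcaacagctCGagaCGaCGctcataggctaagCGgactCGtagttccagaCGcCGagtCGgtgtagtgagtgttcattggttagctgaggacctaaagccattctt
Kdm4d: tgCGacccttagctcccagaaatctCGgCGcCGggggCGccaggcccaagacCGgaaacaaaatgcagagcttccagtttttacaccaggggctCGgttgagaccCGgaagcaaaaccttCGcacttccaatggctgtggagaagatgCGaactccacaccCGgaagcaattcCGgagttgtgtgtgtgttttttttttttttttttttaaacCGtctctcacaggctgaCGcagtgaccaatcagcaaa
Kdm4a held 12 CpG dinucleotides there and Kdm4d 14, against a median of 6 over 32851 promoters of this length. Of 2 starts listed for Kdm4c, the downstream one held 19 and the other held 0. The letters TATAAA and GGGCGG were on neither strand of the Kdm4a and Kdm4d stretches, while 12.4% and 32.7% of all such promoters held them. CCAAT, on either strand, was found 1 time in Kdm4a, 2 times in Kdm4d and in 33.9% of all promoters. Both stretches thus held more CpG than the median promoter.

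Each probe was a single spot, and 24 of the 30 spots (5 probes on 6 arrays) were well above background by the scanner software's own test. None of the 30 was marked as an outlier or saturated. The probes A_52_P281209 of Kdm4a, A_55_P2028064 of Kdm4b and A_55_P2053206 of Kdm4c were well above background on all 6 arrays. The software's error estimate for these 3 was at most 10.02% of the signal. Kdm4d, by A_55_P1970915, was well above background on 2 KO arrays and 2 WT arrays, with an error of 18.8% to 41.7% of the signal. The remaining Kdm4a probe, A_55_P1982585, was well above background on 1 KO array and 1 WT array, with an error of 21.1% to 53.8%. Thus 3 of the 4 genes gave a clear signal in the gland. Levels of different probes are not set against each other, since each probe binds with its own strength.

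The glands had the transcripts of their labelled tissue, and 1 array stood apart in neutrophil and Schwann cell markers. All 12 pituitary markers, among them the hormone genes Gh, Prl and Pomc, were well above background on all arrays. WT replicate 3 had a mean of 0.12 (log2 relative to the 75th percentile) over 7 neutrophil markers, against -2.80 to -2.36 on KO arrays and -2.20 and -2.17 on the other WT arrays. Over 6 Schwann cell and myelin markers it had 0.999, against -0.56 to -0.44 on KO arrays and -0.67 and -0.15 on the other WT arrays. Means over 6 posterior lobe and neural markers were 0.45 to 0.62 on KO arrays and 0.44 to 0.55 on WT arrays. Avp there had a log2 difference of -1.20 ± 0.35 (SE), Slc17a6 0.89 ± 0.27 and Rax 0.53 ± 0.18, KO minus WT. Their limma adjusted p was 0.327 to 0.351. Gfap read -0.28 ± 0.22, Snap25 0.21 ± 0.14 and Oxt 0.03 ± 0.17. Over 5 erythroid markers KO replicate 2 had a mean of 1.71, against 2.03 to 3.06 on the other arrays.

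Of the targeted gene, the bright probe A_52_P281209 (RefSeq transcript NM_001161823, chromosome 4) still gave a clear signal in the KO glands. Its signal was 678, 539.7 and 782 intensity units on KO arrays 1 to 3, against 753, 1170.1 and 695 on WT arrays 1 to 3. At that stage the groups overlapped. Overall brightness also differed between arrays, and the level that served to scale each array, the 75th percentile over its spots, was 246, 233 and 303 in KO and 170.3, 311 and 192.5 in WT. Relative to that percentile, Kdm4a read 1.46, 1.21 and 1.37 (log2) in KO and 2.14, 1.91 and 1.85 in WT. All 3 KO arrays thus lay below all 3 WT arrays, with the smallest gap between KO replicate 1 and WT replicate 3. Such a separation downward was also seen for 13.4% of all 36739 probes tested. Of the 4 Kdm4 probes tested, 2 separated the groups in either direction, against 20.3% of all probes. In whole glands, fewer cells of a type and less RNA per cell cannot be told apart.

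The mean of this probe was 1.35 ± 0.13 in KO and 1.97 ± 0.15 in WT (SD, n = 3 each), a log2 difference of -0.62 ± 0.14 (SE), KO minus WT. The KO signal was therefore 65.0% of that in WT (95% interval 51.5% to 81.9%). By limma with Benjamini-Hochberg adjustment over all probes the difference did not pass (adjusted p = 0.266, unadjusted p = 0.00326), and p was 0.1 in an exact two-sided permutation of the arrays, which cannot go lower with 3 per group. Of the probes tested, 1.22% had a smaller p, and 6.14% had a lower log2 difference. The groups stayed apart with quantile normalization, median centring, normexp and in the authors' value table, where the log2 difference was -0.55. A probe outside the deleted part cannot check the arrays' labels, and the position of this probe within the transcript was not analysed here.

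**Figure D1:**
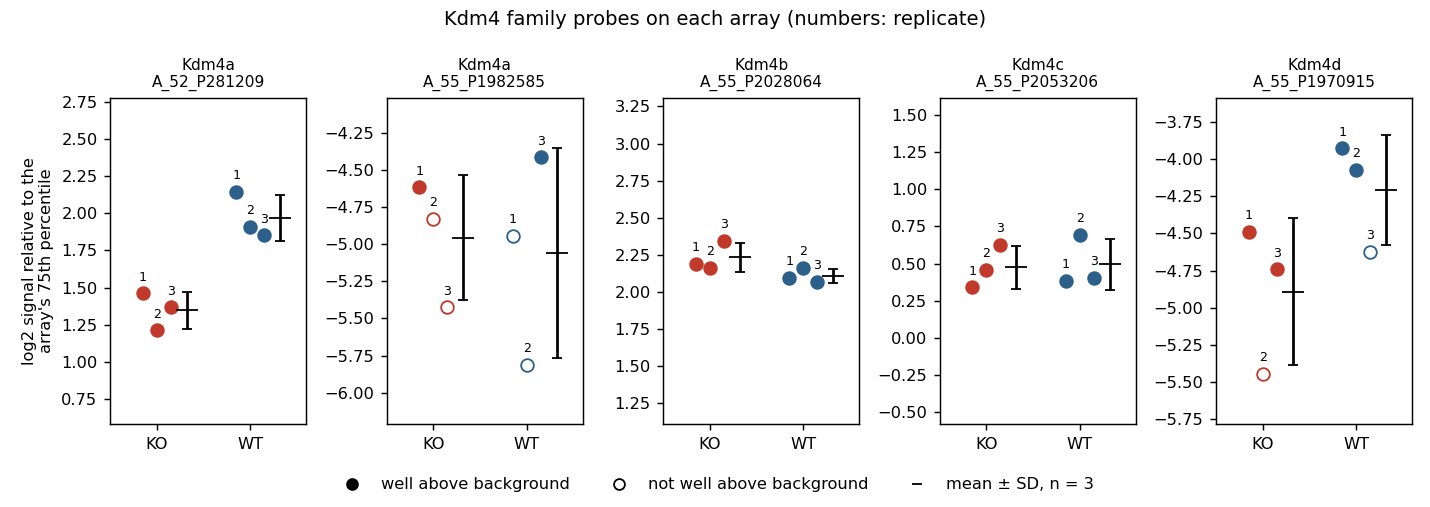
Signal of each Kdm4 probe on each array, as log2 over the 75th percentile of its array, in KO (red, left) and WT (blue, right), with the replicate number beside each point and mean ± SD of 3 arrays in black. Every panel spans the same number of log2 units, open points are spots not well above background, and among the 5 probes the bright Kdm4a probe shows the KO arrays (1.21 to 1.46) below the WT arrays (1.85 to 2.14).

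The dim Kdm4a probe A_55_P1982585 (NM_172382) showed no such separation. Its signal was 10.05, 8.20 and 7.05 intensity units on KO arrays 1 to 3, against 5.54, 5.53 and 9.04 on WT arrays 1 to 3. Median spot brightness there was 37 to 48 units over a local background of 25 to 31. Relative to the 75th percentile it averaged -4.96 ± 0.42 (log2) in KO and -5.06 ± 0.71 in WT (SD, n = 3 each), and the groups overlapped (exact two-sided permutation p = 0.9). It was left out of the test across probes by the filter on dim probes. Fitted without that filter, its log2 difference was 0.10 ± 0.41 (limma adjusted p = 0.918), with a 95% interval of -0.89 to 1.09 that contains the value of the bright probe. It was 0.59 with quantile normalization, 0.28 with median centring, 0.03 with normexp and -0.34 in slide row 1 alone. A difference of the size seen at the bright probe was therefore not resolvable at this brightness. The arrays on which it was highest were KO replicate 1 and WT replicate 3.

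Kdm4b, a close relative of Kdm4a, spanned 0.27 log2 units over all 6 arrays. Its signal was 1123, 1044 and 1539.6 intensity units on KO arrays 1 to 3, against 727, 1393 and 808 on WT arrays 1 to 3. Relative to the 75th percentile it read 2.19, 2.16 and 2.34 in KO and 2.09, 2.16 and 2.07 in WT (log2). The KO arrays lay above the WT arrays by a narrow margin, since KO replicate 2 and WT replicate 2 differed by 0.0028. A separation upward was seen for 6.91% of all probes tested. The log2 difference was 0.12 ± 0.12 (limma adjusted p = 0.656; 95% interval -0.16 to 0.41), and the groups overlapped with quantile normalization, normexp and the authors' value table. In this scaling the 95% interval placed Kdm4b in KO between 89.5% and 133% of WT. With median centring the log2 difference was 0.30 ± 0.17.

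Kdm4c, which like Kdm4a lies on chromosome 4, had close means in both groups. Its signal was 312, 321 and 469 intensity units on KO arrays 1 to 3, against 222, 504 and 255 on WT arrays 1 to 3. Relative to the 75th percentile it was 0.34, 0.46 and 0.63 in KO and 0.38, 0.69 and 0.40 in WT (log2), so the 2 groups overlapped across nearly their whole range. The log2 difference was -0.02 ± 0.15 (limma adjusted p = 0.965), and the 95% interval placed Kdm4c in KO between 77.4% and 126% of WT. Its sign turned under 5 of 20 alternative settings, as with median centring (0.16).

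Kdm4d was the least certain member that passed the filter. Its signal was 10.98, 5.34 and 11.3 intensity units on KO arrays 1 to 3, against 11.2, 18.5 and 7.80 on WT arrays 1 to 3. KO replicate 2 and WT replicate 3 were not well above background. Relative to the 75th percentile it read -4.49, -5.45 and -4.74 (log2) in KO and -3.93, -4.07 and -4.63 in WT. It averaged -4.89 ± 0.50 in KO and -4.21 ± 0.37 in WT (SD, n = 3 each), with overlapping groups. The log2 difference of -0.68 ± 0.29 was about as large as that of Kdm4a, but its 95% interval ran from -1.38 to 0.01 (limma adjusted p = 0.407; exact two-sided permutation p = 0.2). It was -0.04 with normexp, -0.25 with quantile normalization and -0.41 without KO replicate 2. The annotation also lists a related pseudogene, Kdm4dl, and whether the probe reads it was not tested.

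Whether the Kdm4a difference exceeded that of its relatives was asked within each array, where overall brightness cancels. The signal of the bright Kdm4a probe was divided by that of each relative on the same array, and 3 such pairs were compared. In percent of the geometric mean of the WT arrays, Kdm4a over Kdm4b was 66.5%, 56.9% and 56.0% on KO arrays 1 to 3, and 114%, 92.6% and 94.7% on WT arrays 1 to 3. The highest KO array thus stayed below the lowest WT array. The log2 difference of this ratio was -0.75 ± 0.12 (SE over arrays), or 59.6% of WT. Kdm4a over Kdm4c was 78.3%, 60.6% and 60.1% on KO arrays 1 to 3, and 122%, 83.6% and 98.1% on WT arrays 1 to 3, a log2 difference of -0.60 ± 0.20. The 3 KO arrays lay below the 3 WT arrays for this pair too, though not with normexp or in the authors' value table (exact permutation p = 0.2 in both). For Kdm4b and for Kdm4c the p of the exact two-sided permutation over arrays was 0.1, the lowest it can reach, and 0.15 after Benjamini-Hochberg adjustment over the 3 pairs. Over Kdm4d, whose probe was not well above background on 2 arrays, the groups overlapped at a log2 difference of 0.06 ± 0.26 (exact permutation p = 0.7). That value was -0.37 with quantile normalization (exact permutation p = 0.2) and -0.49 with normexp, where the exact permutation p was 0.1.

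**Figure D2:**
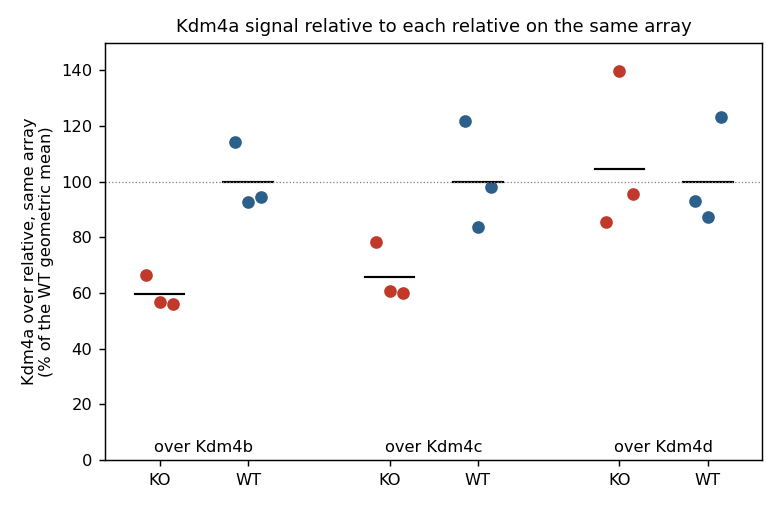
Bright Kdm4a probe divided by each relative's probe on the same array, in percent of the WT geometric mean (y axis), for 3 KO arrays (red) and 3 WT arrays (blue) per relative, with bars at the geometric means. Over Kdm4b the KO arrays lie at 56.0% to 66.5% and the WT arrays at 92.6% to 114%, while over Kdm4d, a probe near background on some arrays, the groups overlap in this scaling (log2 difference 0.06, but -0.49 with normexp).

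All 6 arrays were on 1 slide, in 2 rows. Within slide row 1, with 2 arrays per group, the log2 difference of the bright probe was -0.58 ± 0.19 (limma adjusted p = 0.359), and between the single KO and WT arrays of row 2 it was -0.70. Over 20 alternative settings it ran from -0.70 to -0.44, with a limma adjusted p of 0.124 to 0.636 in the 19 that gave a test. The value nearest 0 came with median centring, which moved the median of all probes to 0.10, against -0.08 in the scaling used here. WT replicate 3, the array with the highest means of neutrophil and Schwann cell markers, had the lowest Kdm4a reading of the WT arrays. Without that array the log2 difference was -0.68 ± 0.16. The distance of Kdm4a from the median of all probes was -0.54 in the scaling used here.

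**Figure D3:**
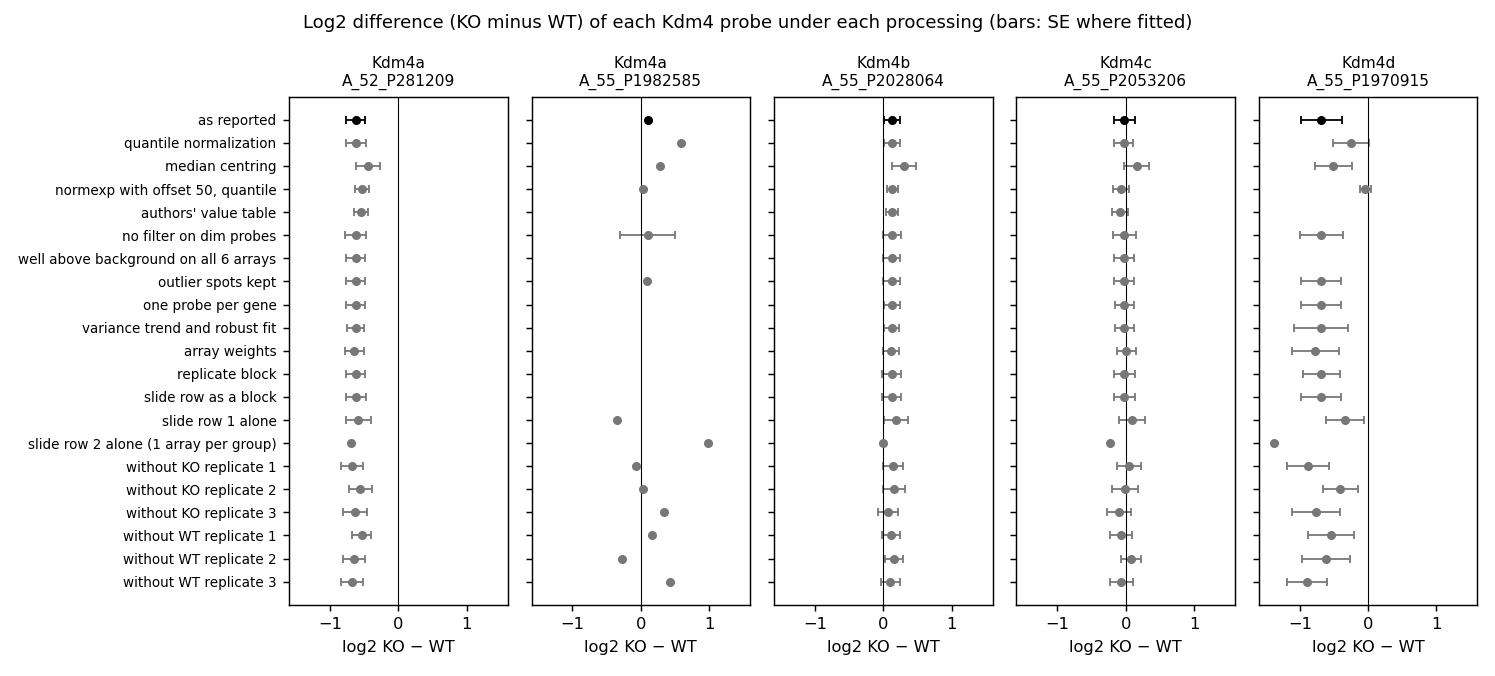
Log2 difference (KO minus WT, x axis) of each of the 5 Kdm4 probes under the processing used here (black, top) and each alternative (grey), with SE bars where a model was fitted and none for single values. The bright Kdm4a probe stays between -0.70 and -0.44, while the points of Kdm4c lie on both sides of 0 and those of Kdm4d reach from -1.38 to -0.04.

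Across the array, limma called 0 of the 36739 probes at an adjusted p under 0.05 (0%), and 4570 (12.4%) had an unadjusted p under 0.05, 1347 of them higher and 3223 (70.5%) lower in KO. Under the alternatives limma called 0 to 30 probes. The lower share was 42.3% with quantile normalization, 25.3% with median centring, 43.6% with normexp, 46.9% in the authors' value table and 81.9% without a filter on dim probes. At that unadjusted level there were 2851 probes without KO replicate 2, 2623 without KO replicate 3 and 6989 without WT replicate 2.

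Other genes that write, erase or read histone methylation, and partners of Kdm4a, were taken from 7 lists with 67 entries, of which 66 were tested by their brightest probe. None was called by limma in either direction, here or under the 19 alternatives that gave a test. At an unadjusted p under 0.05, 10 of the 66 (15.2%) were higher and 2 (3.03%) lower in KO, against 3.67% higher and 8.77% lower over all probes. The lists were read by brightest probes, but the background by every probe tested, dim ones included. Its balance also depended on the scaling, with 70.5% of such probes lower here, 42.3% with quantile normalization and 25.3% with median centring. These list counts were made in the scaling used here only. The median log2 difference of the 66 was 0.08, against -0.08 for all probes, and 42 were above 0 (37 to 52 under the alternatives). The median of these genes lay above that of all probes under each of the 20 alternative settings, by 0.08 to 0.26. Leaving out each array in turn, a setting chosen after seeing the data, kept the sign of 20 of the 21 list genes named next and turned that of Kdm1a. It moved Kdm1b, Uhrf1 and Ash1l by over 1.5 times. These counts are a description of the lists.

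Among the 19 other JmjC proteins 13 were above 0, with a median of 0.11, and 7 lay higher and 1 lower in KO without overlap, against 6.91% and 13.4% of all probes. The 3 with the smallest p were among the 7. Phf8, a demethylase of histone H3 and H4, had a log2 difference of 0.39 ± 0.12, reading 2.55, 2.55 and 2.45 in KO and 2.05, 2.23 and 2.12 in WT (log2). Hr, the hairless corepressor, had 0.43 ± 0.15 and Phf2, a JmjC relative of Phf8, 0.43 ± 0.16, with limma adjusted p of 0.336 to 0.370 for the 3. The other 2 probes of Phf8, dimmer than the first, read 0.13 ± 0.17 and -0.04 ± 0.48. Of the FAD-dependent demethylases, which use another chemistry, Kdm1b read 0.37 ± 0.16 and Kdm1a 0.03 ± 0.12 (0.22 and 0.08 without WT replicate 3). Kdm1a read -0.0045 without KO replicate 1 and -0.0072 without WT replicate 1. Rcor1, a corepressor subunit and partner of Kdm1a, read 0.49 ± 0.13 (limma adjusted p = 0.300), and its other probe 0.43 ± 0.18. All 3 KO arrays lay above all 3 WT arrays for Kdm1b and Rcor1 and not for Kdm1a, against 6.91% of all probes separating upward.

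The list of H3K36 methyltransferases and SET-domain relatives had 6 of 9 members above 0 and a median of 0.09. Among the 6 was Setd3 (0.04), known as an actin histidine methyltransferase and named after its value was seen. Setd2, the main enzyme that trimethylates H3K36, had a log2 difference of 0.45 ± 0.16, Ash1l 0.51 ± 0.19 and Nsd1 0.33 ± 0.13, each with KO above WT on all arrays, as for 6.91% of all probes (limma adjusted p of 0.371 to 0.392). Without WT replicate 1 the value of Ash1l was 0.32. The other probe of Nsd1 read -0.02 ± 0.18. Among H3K9 methyltransferases and their relatives 5 of 8 tested were above 0, with a median of 0.09, which was 0.25 with quantile normalization, -0.0077 without WT replicate 2 and -0.08 in slide row 1 alone. Prdm2 read 0.30 ± 0.13 and Setdb1, which silences retroelements, 0.38 ± 0.17, while Suv39h2, an enzyme of constitutive heterochromatin, read -0.33 ± 0.14 (limma adjusted p of 0.407 to 0.410).

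Readers of these marks and partners of HP1 had 7 of 12 members above 0 and a median of 0.09. Mphosph8, which binds methylated H3K9, read 0.57 ± 0.19 and Msh6, a mismatch repair protein that binds methylated H3K36, 0.18 ± 0.12. Uhrf1, which couples DNA methylation to replication, read -1.87 ± 0.66, from -2.48, -3.20 and -2.97 in KO and -1.46, -2.18 and 0.58 in WT (log2). Its high WT value was that of WT replicate 3, the array with the highest means of neutrophil and Schwann cell markers. Without that array the difference was -1.07.

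A further list joined the NCoR complex, to which human KDM4A binds, with other deacetylases and the retinoblastoma protein. Its values lay on both sides of 0, with 4 of 9 above 0 and a median of -0.07. That median was 0.02 to 0.11 with quantile normalization, median centring, normexp and the authors' value table. Ncor1 read 0.60 ± 0.20, 0.60 ± 0.18 and -0.42 ± 0.12 by its 3 probes. Tbl1xr1, another subunit of the NCoR complex, read -0.38 ± 0.13 (-0.02 ± 0.14 by its other probe). Hdac3, the deacetylase of that complex, read -0.40 ± 0.18. Of 6 components of ubiquitin ligases that act on human KDM4A, 4 were above 0, with a median of 0.04, which was -0.016 without KO replicate 3 and 0.11 without KO replicate 1. Rnf168 read 0.56 ± 0.15 (limma adjusted p = 0.301), with 1.73, 1.74 and 1.86 in KO and 0.98, 1.38 and 1.28 in WT (log2). Fbxo22, the F-box protein for human KDM4A, read 0.27 ± 0.12 and Fbxl4 -0.22 ± 0.13 (-0.12 ± 0.20 by its other probe).

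**Figure D4:**
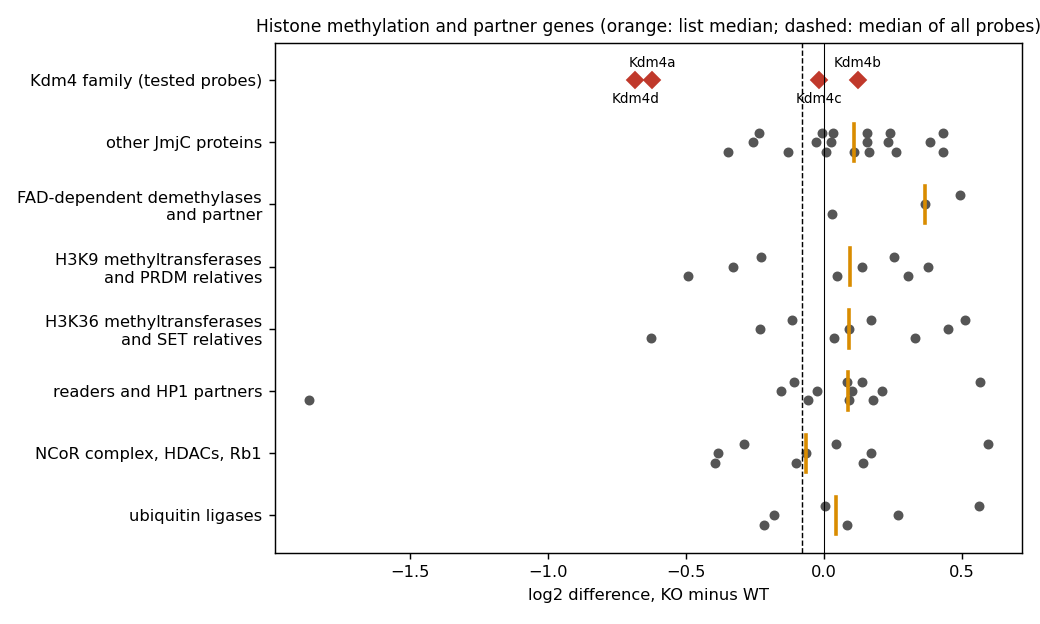
Log2 difference (KO minus WT, x axis) of the 4 tested Kdm4 probes (red diamonds) and of each tested gene in 7 lists (grey points, brightest probe), with list medians in orange and the median of all probes dashed. The bright Kdm4a probe lies at -0.62 and Kdm4d at -0.68 (-0.04 with normexp and -0.41 without KO replicate 2), with Uhrf1 (-1.87) and Prdm9 (-0.63) the lowest genes of the lists in this scaling.

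The genes most like the bright Kdm4a probe over the 6 arrays were Ppfia4, Tnfsf15, Lgi4, Tmem44 and Acsbg3. Likeness was the root mean square difference between array profiles, each centred on its own mean, over 15324 genes well above background on all arrays, and it was 0.06 to 0.09 log2 units for these 5, against a median of 0.37. Ppfia4, a liprin of synaptic scaffolds, read -1.11, -1.36 and -1.18 in KO and -0.47, -0.78 and -0.83 in WT (log2), with the arrays of each group in the same order as for Kdm4a. Its log2 difference was -0.52 ± 0.15. Those of Tnfsf15, a cytokine of the TNF family, Lgi4, a secreted protein of peripheral myelination, Tmem44 and Acsbg3 were -0.57 ± 0.13, -0.71 ± 0.12, -0.54 ± 0.15 and -0.52 ± 0.13. None of the 5 was called, with limma adjusted p of 0.258 to 0.327. The 5 were chosen for their likeness to Kdm4a on these same arrays. Their lower KO means and like array profiles therefore follow from the choice and are no separate result.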

How the data were processed

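RNA from whole pituitaries of 3 KO and 3 WT mice was hybridised to 6 one-colour arrays after Cy3 labelling, per the labels' protocols. Per the file headers, 1 slide was read in 1 scan with Agilent Feature Extraction 11.0.1.1, and the design carries build mm9. The deposited intensity values (gProcessedSignal) were background-subtracted and detrended by that program, not normalized between arrays. The table deposited by the authors gives log2 values for 26625 probes, with a normalization that the sources used here do not give. Each column followed the log2 brightness of its own array (r of at least 0.997). The submitters' processing notes name limma. Normexp used the median spot brightness.

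Control and outlier spots (150 to 220 per array) were left out, spots of a probe averaged as log2, and each array's 75th percentile over spots subtracted. The test took probes that 3 or more arrays showed well above background (36739 of 55681, of which 4 of the 5 Kdm4 probes), each on its own. Between 34634 and 40567 probes per array were well above background, and the number of arrays limits the precision. KO and WT were compared in R 4.3.3 with limma 3.58.1, two-sided, calling at an adjusted p under 0.05. The fit was tested on simulated data. The GRCm38.p6 annotation gave symbols for 27656 probes. The mice are separate animals, and the labels do not say whether equal replicate numbers mark a shared litter.

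The Kdm4 members, lists, tests and alternatives were chosen with earlier results of these data known. The text names every Kdm4 probe, up to 3 members of each list with the smallest p, and the 5 genes most like Kdm4a. Prdm9 was named after its values were seen. Cell type markers served only as checks. Alternatives were quantile normalization, median centring, normexp with an offset of 50 followed by quantile normalization, the authors' value table, other filters on dim probes, outlier spots kept, 1 probe per gene, robust fitting with a trend in the variance, weights per array, the replicate number or slide row as a block, each slide row alone and leaving out each array.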

Additional observations from a re-analysis of the deposited data

How the results depend on the processing

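The bright Kdm4a probe kept its sign under all 20 alternatives, and Kdm4b under all 20 (0.0028 to 0.30), with neither called by limma in any that gave a test. Leaving out single arrays gave -0.68 to -0.53 for Kdm4a, 0.07 to 0.16 for Kdm4b, -0.89 to -0.41 for Kdm4d and -0.28 to 0.42 for the dim Kdm4a probe, which read 0.99 in slide row 2 alone (1 array per group). Kdm4c turned to 0.16 with median centring, 0.0073 with array weights and 0.090 in slide row 1 alone, and ran from -0.094 to 0.082 without single arrays. Kdm4a over Kdm4d turned to -0.37 with quantile normalization, -0.49 with normexp and -0.24 in slide row 1 alone, and ran from -0.15 to 0.21 without single arrays. Kdm4a over Kdm4b ran from -0.82 to -0.65 and over Kdm4c from -0.73 to -0.46 over 14 alternatives. The authors' value table holds neither dim probe. Limma called 3 probes of all with median centring, 23 with normexp, 29 in the authors' value table, 11 among probes well above background on all arrays and 30 with a variance trend, and the bright Kdm4a probe was not among them. The count at an unadjusted p under 0.05 ran from 2623 to 6989 without single arrays. With a replicate block Kdm4a read -0.62 ± 0.14 (limma adjusted p = 0.454), Kdm4b 0.12, Kdm4c -0.02 and Kdm4d -0.68, with 0 probes called. Kdm4a over Kdm4b had an exact sign-flip p of 0.25 in that pairing, the smallest that 3 pairs allow. Same-numbered KO and WT arrays deviated with correlations of 0.14, -0.17 and -0.10 across probes, and unlike-numbered arrays with -0.12 to 0.21. Deviations from a mean of 3 arrays balance out within a group, so these values cannot decide whether the arrays were paired. The labels do not say that equal numbers mark pairs, and the numbers were not taken as such. The cause of these shifts was not tested. Single spots near background limit what Kdm4d and the dim Kdm4a probe can show.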
